A study of Chlorocebus aethiops with 24 samples.

Results

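Oxidative phosphorylation is the process by which mitochondria turn the electrons of food into ATP. Complex I (NADH dehydrogenase) and complex II (succinate dehydrogenase) take up the electrons, complex III (the cytochrome bc1 complex) passes them on through cytochrome c, and complex IV (cytochrome c oxidase) hands them to oxygen. The protons pumped on the way drive complex V (ATP synthase), and neurons, including those of the hippocampus, rely on this pathway for most of the ATP that ion pumping and synaptic transmission consume.

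The genes described here are the nuclear-encoded subunits of these complexes, together with factors that help to assemble complexes I and II. They were taken by symbol as all probe sets with 1 annotated gene whose symbol begins with NDUF, SDHA to SDHD, UQCR, COX4 to COX8 or ATP5, or is CYC1 or CYCS. The rule found 62 of 11512 probe sets, which covered 55 of the 8208 genes in the annotation. Complex I had 23 probe sets of 21 genes, complex II had 2 of 2, complex III had 9 of 6, complex IV had 6 of 5 and complex V had 13 of 12, while 9 probe sets of 9 genes were assembly factors. NDUFA4, which was first described in complex I, was counted in complex IV, where its protein is now placed. No probe set with 1 symbol was found for cytochrome c itself (CYCS), for COX4, COX6A, COX7B or COX8A, or for the catalytic subunits ATP5F1A and ATP5F1B, and these genes were not analysed here.

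The study asked how alcohol before birth and age act on gene expression in the hippocampus of the vervet monkey (Chlorocebus). RNA from the whole left hippocampus of 22 captive-bred males was hybridized to the Affymetrix GeneChip Rhesus Macaque Genome Array, with 1 array for each animal. The groups at 2 years were 5 animals exposed to alcohol before birth, called FASD here, and 6 controls. At 5 months they were 5 FASD animals and 6 controls. FASD stands for fetal alcohol spectrum disorder, the study's name for the exposed groups. It marks exposure and not a diagnosis, and the paper describes no facial malformation or retarded growth in these offspring. All mothers were females that choose to drink alcohol. In late pregnancy the mothers of the FASD animals drank ethanol of their own accord, and those of the controls were offered a sucrose solution of equal calories. A female could be given ethanol in 1 pregnancy and sucrose in another, and the labels used here do not tie animals to mothers. Another 2 FASD arrays, 1 at each age, were discarded in the study and hold no values. The discarded array at 5 months is titled replicate 2, as is a kept array of that group, while the paper names FASD5_1 as excluded. FASD animal 2 at 5 months is the kept array throughout.

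Values are log2 intensities, so that a difference of 0.25 corresponds to a ratio of 1.19. The probes were designed for the macaque, and intensities are compared only between animals within a probe set. For alcohol, the differences FASD minus control of the 2 ages were averaged with equal weight, and for age, the differences 2 years minus 5 months of FASD animals and of controls. Because whole tissue was used, fewer cells of a type and less RNA per cell cannot be told apart. Control animal 6 at 5 months carries conflicting labels, with an age of 2 years in its source name and of 5 months in its title, description and age field, and it was kept at 5 months. FASD animal 2 at 5 months stood apart from the other arrays, with the lowest array weight in limma (0.273, against 0.379 to 2.54 in the others). Its mean deviation over 5 markers of mural cells and fibroblasts was 0.84, and over 6 markers of excitatory neurons it was -0.25. FASD animal 2 at 2 years was lower in the excitatory neuron markers (-0.35) and had a weight of 0.413. Control animal 2 at 2 years had a weight of 0.379 and a deviation of -0.17 in the same markers. The counts without this control are given with the other fits that left out 1 animal. For some values that leaving out either FASD animal moved across an unadjusted p of 0.05, the value without it is given. Not every such value is listed. Excitatory neuron genes of the hippocampus were measured in all arrays, among them NRGN and NEUROD6.

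**Figure D1:**
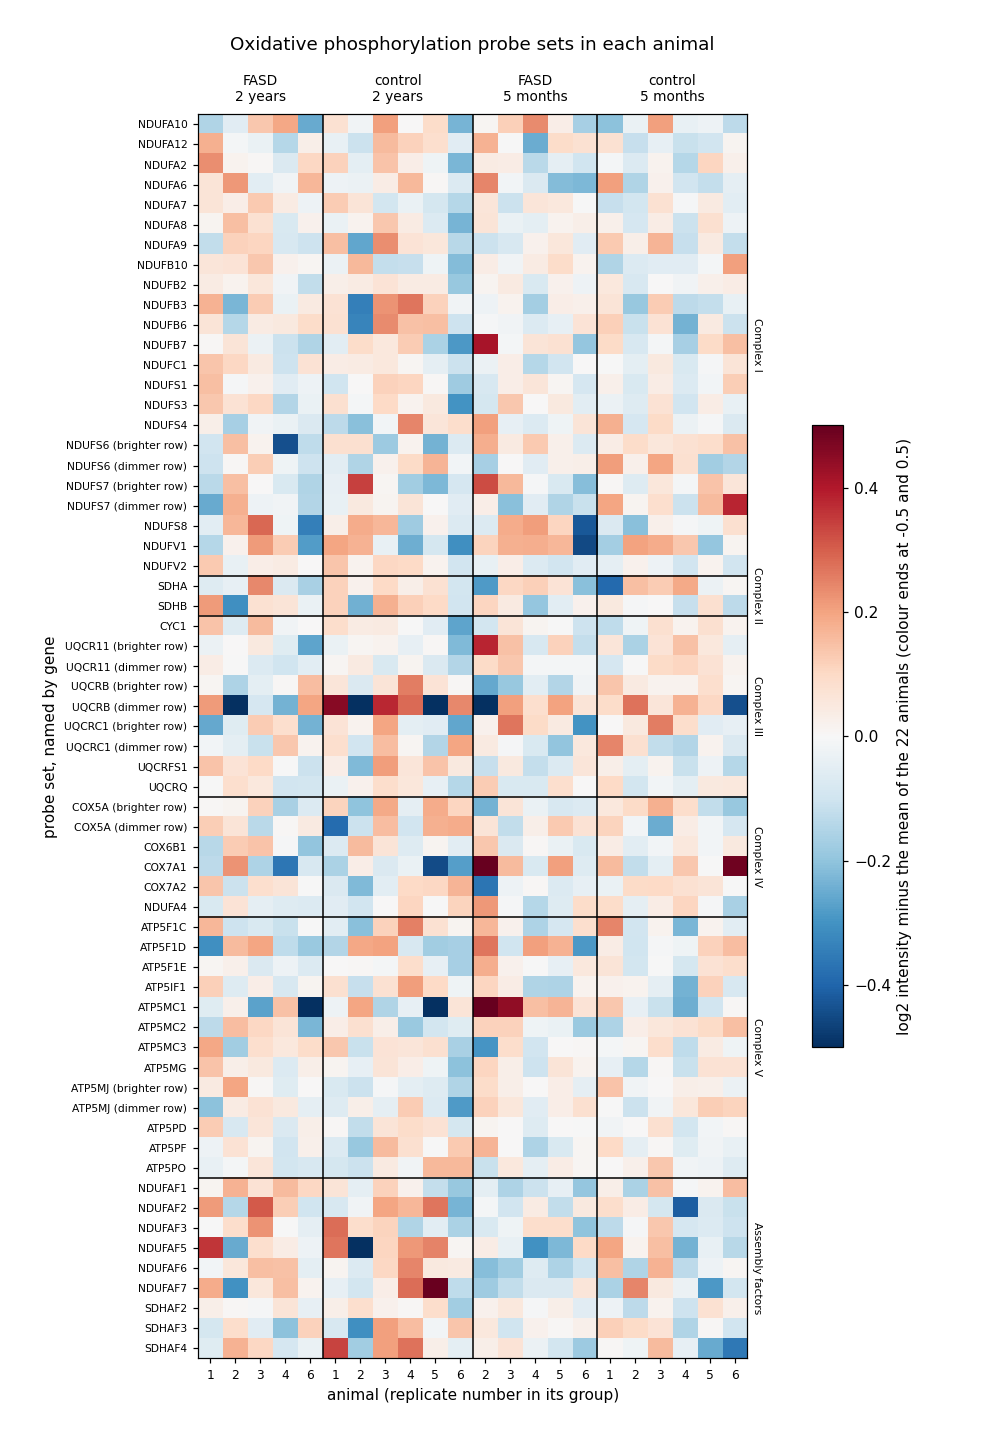
Log2 intensity of the 62 oxidative phosphorylation probe sets in 22 animals, as the deviation from each probe set's mean (red above, blue below, colours ending at -0.5 and 0.5). Columns are animals by group and rows are probe sets by complex. Animals of every group show both colours in each complex, and UQCRB (dimmer row), COX7A1 and ATP5MC1 hold some of the strongest ones.

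The groups differed little in the level of the pathway as a whole, with group means of the deviation over all 62 probe sets between -0.0032 and 0.0031. In single animals the mean deviation over the 62 probe sets was between -0.05 and 0.05 in the FASD animals at 2 years, between -0.08 and 0.08 in controls at 2 years, between -0.05 and 0.04 in FASD at 5 months and between -0.05 and 0.05 in controls at 5 months. The highest and the lowest animals were both controls at 2 years. Control animal 3 was above the overall mean in 50 of the 62 probe sets, and control animal 6 was above it in 16. All groups overlapped in this mean.

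**Figure D2:**
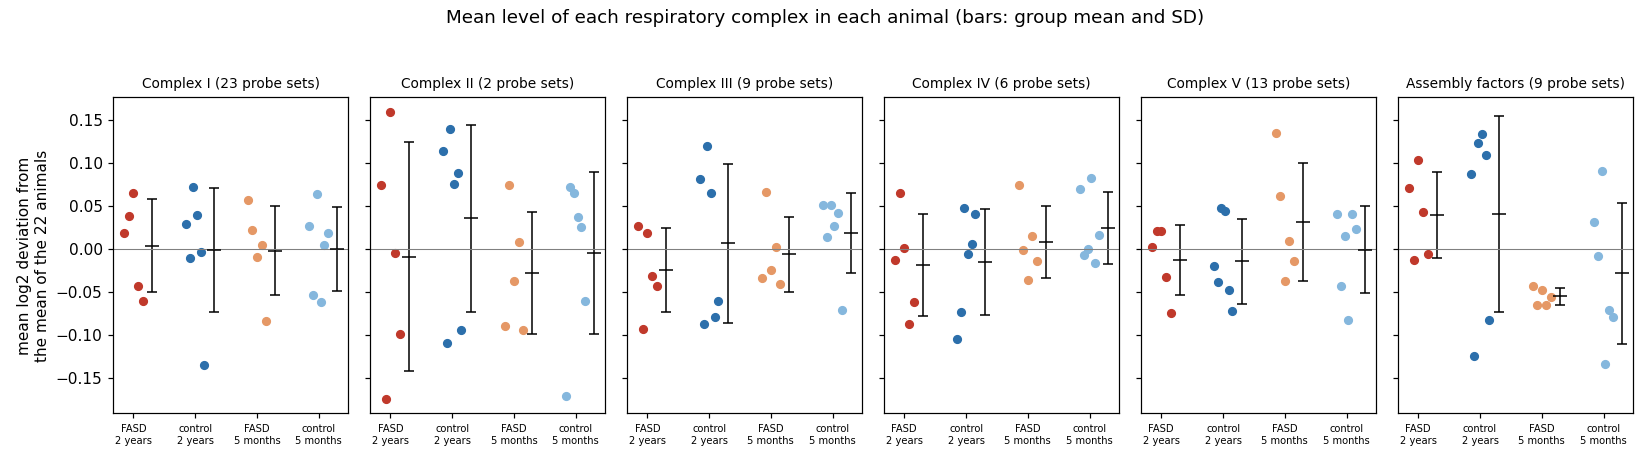
Mean log2 deviation of the probe sets of each complex in each animal, with 1 point per animal and bars for the group mean and SD. The groups overlap in the panels of complexes I to V. In the panel of assembly factors the 5 FASD animals at 5 months lie between -0.07 and -0.04, below all FASD animals at 2 years.

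No probe set of the pathway passed an adjusted p of 0.05 in any comparison with limma, nor with a two-way analysis of variance. For alcohol, 2 of the 62 were at an unadjusted p under 0.05, both lower in FASD, while 8.44% of all 11512 probe sets were, 6.01% as lower and 2.43% as higher. For age, 5 were under 0.05 (3 lower and 2 higher at 2 years), against 9.57% of all probe sets (4.89% lower and 4.68% higher). For the interaction, which is the alcohol difference at 2 years minus that at 5 months, the number was 2, 1 in each direction, against 3% of all (0.886% below 0 and 2.11% above). The shares of the pathway were 3.23% for alcohol, 8.06% for age and 3.23% for the interaction. The lowest adjusted p was 0.579 for alcohol and 0.29 for age, although 16 probe sets of the whole array (0.139%) passed the adjusted threshold for age.

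The alcohol differences of single probe sets were small. They ran between -0.14 and 0.17 with a median of -0.0021, against -0.0069 over all probe sets, and 59 of the 62 were smaller than 0.1. The 95% interval lay within 0.25 on either side of 0 for 58 of them. The split by sign was 32 lower and 30 higher in FASD, where 53.2% of all probe sets were lower and 46.8% higher. It was 22 and 40 with each array centred on its median, and 19 and 43 after quantile normalization, so the direction of a small difference here depends on the scaling. The median over all probe sets moved as well, to 0.0064 after centring and 0.0096 after quantile normalization. Shares of all probe sets by sign, here and for age, are for the values as deposited only. The age differences ran between -0.27 and 0.13 with a median of 0.0095, against 0.0028 over all probe sets. Of these, 54 were smaller than 0.1 and 54 had an interval within 0.25 of 0. The split was 25 lower and 37 higher at 2 years (48.5% and 51.5% of all probe sets), 21 and 41 after centring and 29 and 33 after quantile normalization. Oxidative phosphorylation genes varied little among animals, with a median residual SD of 0.12 (0.0644 to 0.354), against 0.158 over all probe sets.

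**Figure D3:**
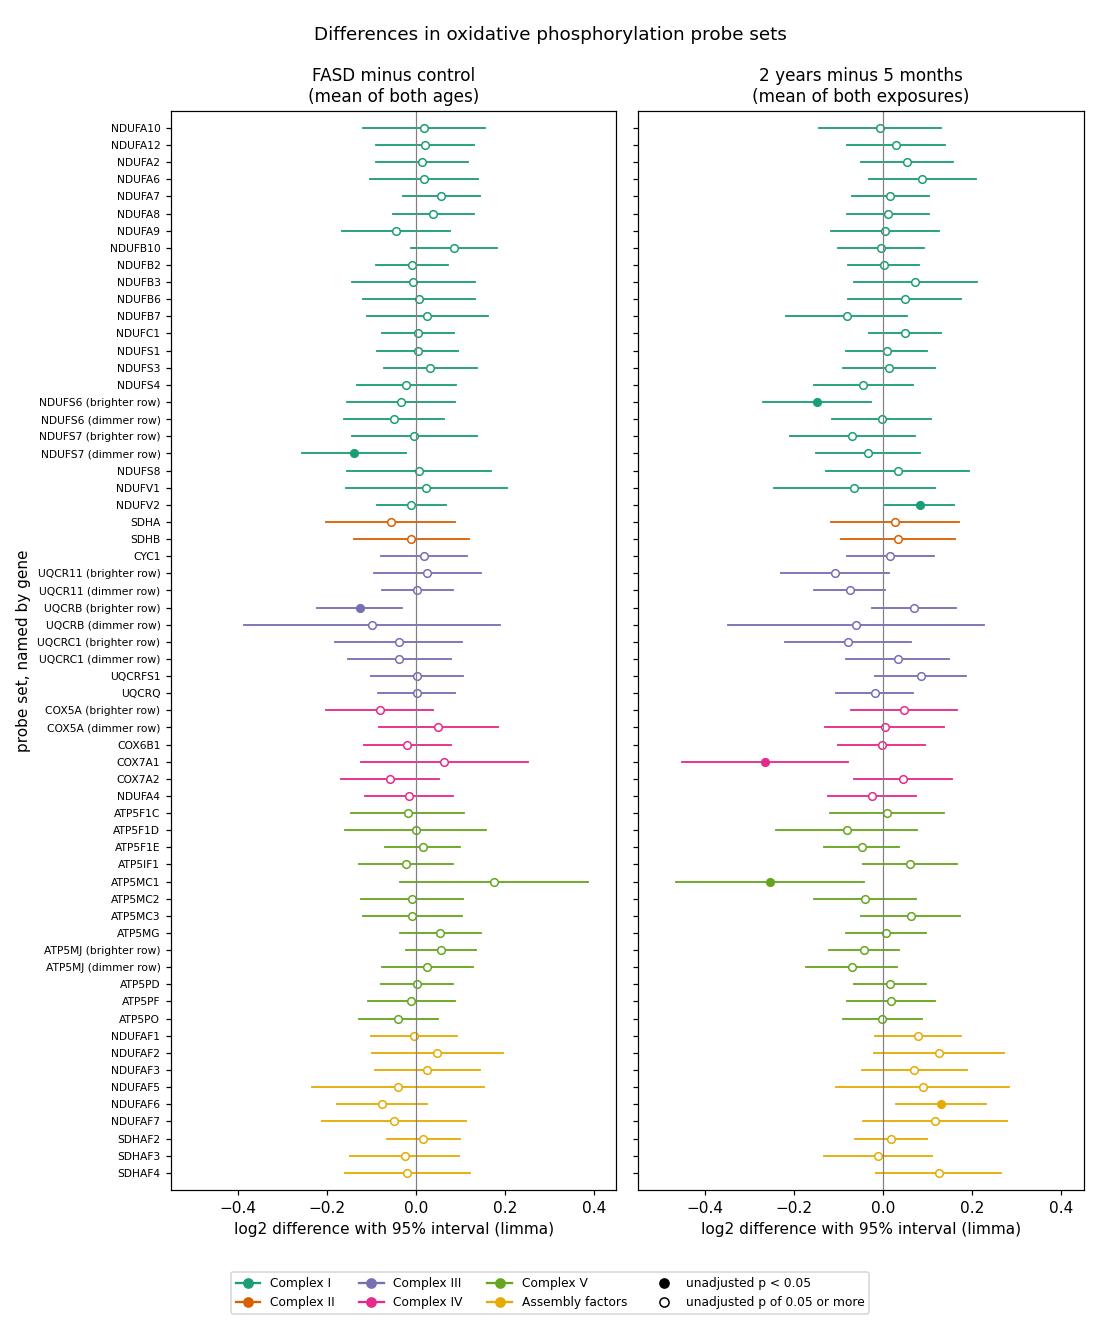
Log2 differences with 95% intervals for each probe set, coloured by complex, FASD minus control on the left and 2 years minus 5 months on the right. Filled points have an unadjusted limma p under 0.05, 2 on the left and 5 on the right. Most intervals span 0, and the 6 NDUFAF assembly factors lie to the right of 0 for age.

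Complex I carries electrons from NADH to ubiquinone through a chain of flavin and iron-sulfur subunits, the core, surrounded by accessory subunits. The 7 probe sets of its core had a median alcohol difference of 0.0034 and the 16 of its accessory subunits had one of 0.01. Only 1 of the 23 was under an unadjusted p of 0.05 for alcohol, a probe set of NDUFS7. NDUFS7 encodes the core subunit with the iron-sulfur cluster nearest to ubiquinone and has 2 probe sets, called brighter and dimmer here by their mean intensity. In the dimmer one, the FASD animals at 2 years had values of 6.92, 7.34, 7.14, 7.15 and 7.02, and the controls at 2 years had values of 7.11 to 7.23 with a median of 7.17. The FASD animals at 5 months had 7.20, 6.96, 7.11, 7.02 and 7.05, against 7.06 to 7.55 with a median of 7.29 in controls at 5 months. At 5 months all 5 FASD animals lay below the control median and 3 lay below every control, though the groups overlapped. At 2 years the FASD values spread beyond the controls on both sides.

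The alcohol difference of this NDUFS7 probe set was -0.14 (SE 0.06, 95% interval -0.26 to -0.02, unadjusted p = 0.0215, adjusted p = 0.579, limma), a ratio of 0.908. It was -0.06 at 2 years (interval -0.22 to 0.11) and -0.22 at 5 months (interval -0.38 to -0.05, a ratio of 0.859). The interaction was 0.16 (interval -0.07 to 0.39), so that a difference between the ages was not shown. Without control animal 6 at 5 months, which had the highest value of that group, the difference at 5 months was -0.17. Without FASD animal 1 at 2 years the alcohol difference was -0.11 and no longer had an unadjusted p under 0.05. The brighter probe set of NDUFS7 gave -0.003 for alcohol (interval -0.14 to 0.14), with -0.01 at 2 years and 0.01 at 5 months. The interval of this probe set includes the value of the dimmer one only at its edge.

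Age differences in complex I were likewise limited to 2 probe sets. NDUFS6 encodes a zinc-binding accessory subunit that is needed late in assembly. Its brighter probe set had values of 10.12, 10.36, 10.23, 9.78 and 10.09 in FASD at 2 years, and of 9.98 to 10.29 with a median of 10.19 in controls at 2 years. At 5 months it had 10.39, 10.26, 10.34, 10.24 and 10.15 in FASD, and 10.25 to 10.36 with a median of 10.29 in controls. All 6 controls at 2 years were below the control median at 5 months and 4 were below every control at 5 months. In FASD 3 of 5 animals at 2 years were below every animal at 5 months, and the groups overlapped in both exposures. The age difference was -0.15 (SE 0.06, unadjusted p = 0.0194, adjusted p = 0.395, limma), a ratio of 0.902, and was -0.11 without FASD animal 4 at 2 years, the lowest value. The dimmer probe set of NDUFS6 gave -0.004 (interval -0.12 to 0.11).

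NDUFV2, a core iron-sulfur subunit beside the NADH site, had the narrowest residual spread of the pathway. It averaged 10.57 ± 0.06 in FASD at 2 years (SD, n = 5) and 10.49 ± 0.05 in FASD at 5 months (SD, n = 5), with 10.58 ± 0.09 in controls at 2 years and 10.5 ± 0.05 in controls at 5 months (SD, n = 6 each). The age difference of 0.08 (SE 0.04, unadjusted p = 0.039, adjusted p = 0.481, limma) was at a p of 0.05 or more in 11 of 22 fits that left out 1 animal, among them that without control animal 6 at 5 months (0.08). Among the rest of complex I, NDUFB10, an accessory subunit of the membrane arm, had the next lowest p for alcohol, with a difference of 0.09 (interval -0.01 to 0.18). Without control animal 6 at 5 months it was 0.11 and under an unadjusted p of 0.05. Without FASD animal 2 at 5 months, NDUFA6, another accessory subunit, had an age difference of 0.13, against 0.09 with it, and one of 0.21 in FASD alone, against 0.13, both under that threshold only without the animal. The other core genes had alcohol differences between -0.01 and 0.03, namely NDUFS1 with 0.0034, NDUFS3 with 0.03, NDUFS8 with 0.01, NDUFV1 with 0.02 and NDUFV2 with -0.01.

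Complex II was represented by SDHA, the flavin subunit that oxidizes succinate, and SDHB, the iron-sulfur subunit next to it. SDHA had an alcohol difference of -0.06 (interval -0.20 to 0.09) and an age difference of 0.03 (interval -0.12 to 0.17). SDHB had -0.01 (interval -0.14 to 0.12) for alcohol and 0.03 (interval -0.09 to 0.16) for age. Neither had an unadjusted p under 0.05 in any of the 7 comparisons.

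The lowest p for alcohol in the pathway was in complex III. UQCRB encodes a small subunit that binds near the ubiquinone site. Its brighter probe set had values of 11.12, 10.96, 11.07, 11.12 and 11.27 in FASD at 2 years, against 11.04 to 11.37 with a median of 11.18 in controls at 2 years. It had 10.86, 10.92, 11.06, 10.97 and 11.10 in FASD at 5 months, against 11.12 to 11.25 with a median of 11.14 in controls at 5 months. At 5 months every FASD animal was below every control, while at 2 years the groups overlapped. It was the only 1 of the 62 probe sets whose groups did not overlap at 5 months, and 0.321% of all probe sets were lower in FASD without overlap at that age (0.443% in either direction).

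The alcohol difference of the brighter UQCRB probe set was -0.13 (SE 0.05, interval -0.22 to -0.03, unadjusted p = 0.0112, adjusted p = 0.579, limma), a ratio of 0.916. By an exact permutation of animals within age, two-sided, its p was 0.00665. At 5 months the difference was -0.18 (unadjusted limma p = 0.00949), a ratio of 0.88, and the exact permutation p of 0.00216, the smallest that 462 arrangements can give, restates that the groups did not overlap in a probe set named for its low p among 62. At 2 years it was -0.07 (exact permutation p = 0.329). The interaction, 0.11, had a limma p of 0.225, so that a difference between the ages was not shown. The alcohol difference stayed between -0.15 and -0.11 when any 1 animal was left out, and the difference at 5 months was -0.15 without FASD animal 2. Among the other measures at 5 months, 9 of 17 listed genes of oligodendrocytes and their precursors were measured, and their mean deviation did not overlap either, with 0.15 to 0.41 in FASD and -0.15 to 0.01 in controls. At 2 years it was -0.31 to 0.23 in FASD and -0.40 to 0.09 in controls. The part of these cells in the differences at 5 months was not tested.

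The dimmer probe set of UQCRB had the widest spread of the pathway. It ranged between 9.42 and 10.30 in FASD at 2 years, against 9.53 and 10.54 in controls at 2 years. At 5 months it ranged between 9.57 and 10.29 in FASD, against 9.65 and 10.36 in controls, and in both of these groups 1 animal lay far below the others. Its alcohol difference was -0.10 with an interval of -0.39 to 0.19, which includes both 0 and the value of the brighter probe set.

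The other complex III genes showed smaller alcohol differences. CYC1, the cytochrome c1 that passes electrons to cytochrome c, had 0.02 (interval -0.08 to 0.12), and UQCRFS1, the Rieske iron-sulfur protein, had 0.002 (interval -0.10 to 0.11). UQCRC1, a core protein of the matrix side, had -0.04 in both probe sets. UQCR11, a small membrane subunit, had the lowest p values for age in complex III, with differences of -0.11 (interval -0.23 to 0.01) and -0.08 (interval -0.16 to 0.005) in its brighter and dimmer probe sets. These were the only paired probe sets with age differences on the same side of 0 and both under an unadjusted p of 0.1, and neither was under 0.05.

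**Figure D4:**
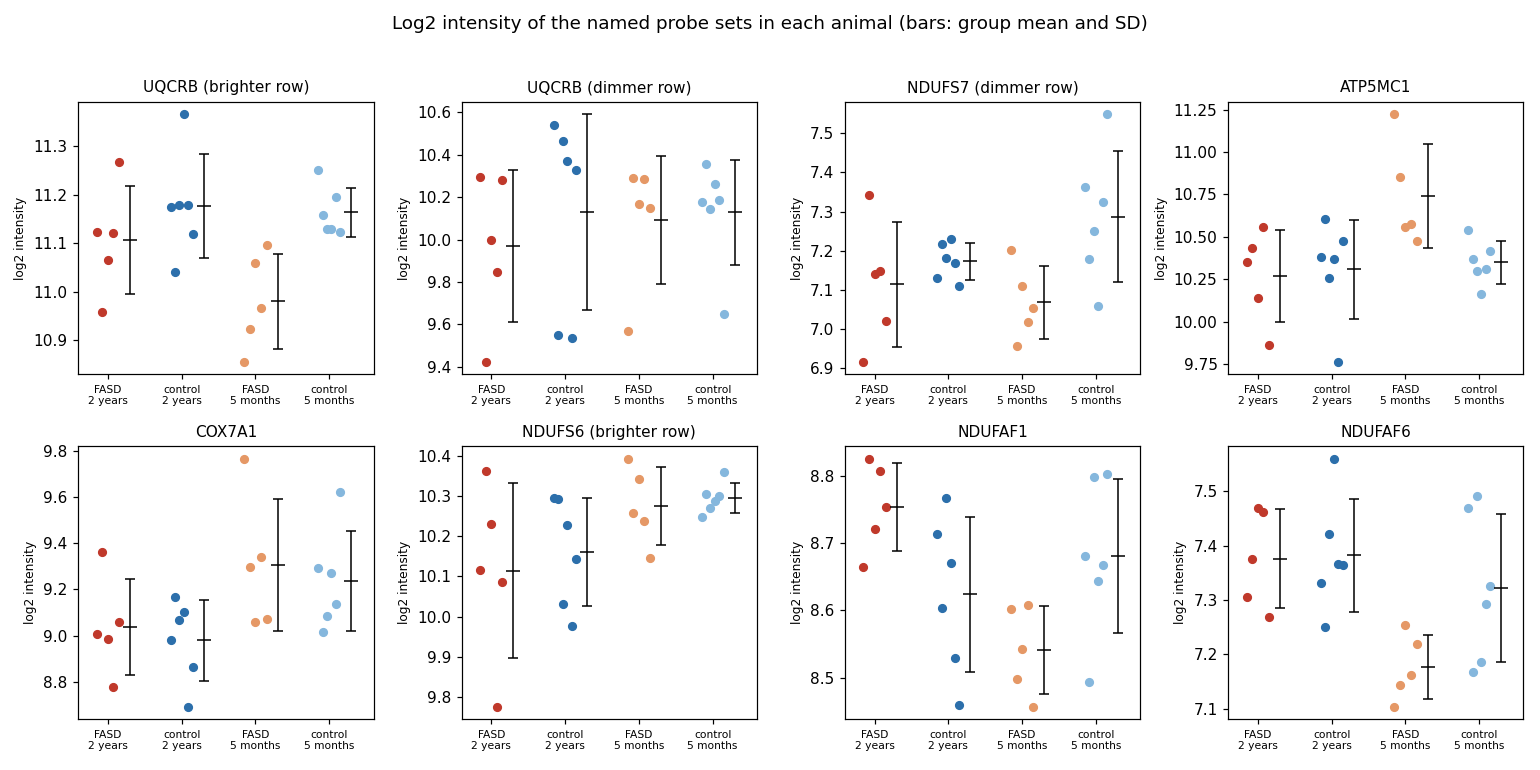
Log2 intensity of 8 probe sets in each animal, by group, with bars for the group mean and SD. UQCRB (brighter row) at 5 months has all FASD animals between 10.86 and 11.10 and all controls from 11.12 upwards. COX7A1 is lower at 2 years in both exposures with overlap, ATP5MC1 is highest in FASD at 5 months, and NDUFAF1 and NDUFAF6 are separated between the ages in FASD.

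The lowest p for age was in complex IV. COX7A1 and COX7A2 encode alternative forms of the same subunit. COX7A1 is best known as the form of heart and skeletal muscle, and COX7A2 is made in most tissues. COX7A1 had values of 9.01, 9.36, 8.98, 8.78 and 9.06 in FASD at 2 years, against 9.77, 9.30, 9.06, 9.34 and 9.07 in FASD at 5 months. In controls the values were 8.69 to 9.17 with a median of 9.02 at 2 years, against 9.02 to 9.62 with a median of 9.20 at 5 months. All 6 controls at 2 years were below the median of the controls at 5 months, and 4 of 5 FASD animals at 2 years were below every FASD animal at 5 months (1 of them equal to 2 decimals), but neither pair of groups was separate.

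The age difference of COX7A1 was -0.27 (SE 0.09, interval -0.45 to -0.08, unadjusted p = 0.00756, adjusted p = 0.29, limma), a ratio of 0.832. An exact permutation of animals within exposure, two-sided, gave p = 0.00935. The difference was -0.27 in FASD (exact permutation p = 0.111, unadjusted limma p = 0.0544, and under 0.05 without control animal 6 at 5 months) and -0.26 in controls (exact permutation p = 0.039). Without FASD animal 2 at 5 months the age difference was -0.21, with -0.16 in FASD alone, and without control animal 6 at 5 months, whose labels conflict, it was -0.23. The difference in controls alone was -0.18 without that animal, with an unadjusted limma p of 0.138. It was at an unadjusted p of 0.05 or more in 6 of 22 fits that left out 1 animal. The same held after centring, after quantile normalization and with the two-way analysis of variance. FASD animal 2 and control animal 6 at 5 months each had the highest COX7A1 value of their group. The mural cell and fibroblast list, of which 5 of 10 genes were measured, had a mean deviation of 0.84 in the first of them and -0.18 in the second, and group ranges of -0.28 to 0.59 in FASD at 2 years, -0.40 to 0.42 in controls at 2 years, -0.20 to 0.84 in FASD at 5 months and -0.40 to 0.37 in controls at 5 months. The only measured gene of ependyma and choroid plexus, FOLR1, had a deviation of 2.01 in control animal 6, its highest value. The part of these cells in the COX7A1 difference was not tested.

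COX7A2 had an age difference of 0.04 (interval -0.07 to 0.15) and an alcohol difference of -0.06 (interval -0.17 to 0.05). Its values at 5 months were 10.40, 10.74, 10.76, 10.69 and 10.72 in FASD, against 10.73 to 10.86 with a median of 10.83 in controls. FASD animal 2 was far below the rest, and the difference of -0.15 at that age had an unadjusted limma p of 0.0606. Without this animal it was -0.08. The remaining genes of complex IV lay near 0. COX6B1, which joins the monomers of the enzyme, had -0.02 for alcohol and -0.004 for age, and NDUFA4 had -0.02 for both. COX5A, a subunit on the matrix side, had -0.08 in its brighter and 0.05 in its dimmer probe set for alcohol, with both intervals spanning 0.

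Complex V couples the flow of protons through a ring of c subunits to rotation and ATP synthesis. ATP5MC1, ATP5MC2 and ATP5MC3 are separate genes whose mature protein is the same c subunit. Of these, ATP5MC1 stood apart. It had values of 10.35, 10.44, 10.14, 10.56 and 9.87 in FASD at 2 years, against 9.76 to 10.60 with a median of 10.38 in controls at 2 years. At 5 months it had 11.22, 10.85, 10.56, 10.58 and 10.48 in FASD, against 10.16 to 10.54 with a median of 10.34 in controls. All 5 FASD animals at 5 months were above the control median and 4 were above every control, whereas at 2 years the groups covered the same range.

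The difference of ATP5MC1 between FASD and controls was 0.39 at 5 months (interval 0.09 to 0.69, unadjusted p = 0.0132, adjusted p = 0.932, limma), a ratio of 1.31. It was -0.04 at 2 years (interval -0.34 to 0.26), and the interaction was -0.43 (unadjusted p = 0.0479, limma). The age difference was -0.25 (unadjusted p = 0.0203, adjusted p = 0.399, limma), with -0.47 in FASD (unadjusted p = 0.00505, limma), a ratio of 0.723, and -0.04 in controls. FASD animal 2 at 5 months had the highest value of all. Without it, the difference at 5 months was 0.27, the interaction was -0.31 and the age difference was -0.19, and none of these had an unadjusted p under 0.05. The interaction was above that threshold in 15 of 22 fits that left out 1 animal, those without this animal and without control animal 6 at 5 months (-0.44) included, and without FASD animal 6 at 2 years, the lowest of its group, the age difference was -0.20 and above it too. The age difference in FASD was -0.35 without FASD animal 2 at 5 months, with a limma p of 0.0239.

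ATP5MC2 and ATP5MC3 had smaller values. At 5 months ATP5MC2 had -0.04 (interval -0.20 to 0.12) and ATP5MC3 had -0.05 (interval -0.21 to 0.10) in FASD minus controls. For age they had -0.04 (interval -0.16 to 0.07) and 0.06 (interval -0.05 to 0.17). Among the rotor and catalytic head subunits, ATP5F1C, the gamma shaft, had -0.02 for alcohol and 0.01 for age, ATP5F1D had -0.0007 and -0.08, and ATP5F1E had 0.01 and -0.05. ATP5IF1, the inhibitor that blocks ATP hydrolysis when the proton gradient falls, had -0.02 (interval -0.13 to 0.08) for alcohol and 0.06 (interval -0.04 to 0.17) for age. The stator genes ATP5PD, ATP5PF and ATP5PO had alcohol differences of 0.003, -0.01 and -0.04.

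The only probe set under an unadjusted p of 0.05 for alcohol at 2 years was the brighter one of ATP5MJ, a small membrane protein of ATP synthase. This 1 of 62 compares with 6.05% of all probe sets (3.35% lower and 2.69% higher). Its values were 6.42, 6.58, 6.38, 6.32 and 6.38 in FASD at 2 years, against 6.23 to 6.37 with a median of 6.31 in controls. The difference was 0.11 (unadjusted p = 0.0458, adjusted p = 0.793, limma), and it was 0.07 and above the threshold without FASD animal 2, the highest value. The dimmer probe set of ATP5MJ gave 0.03.

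Among the assembly factors, 8 of 9 had an age difference above 0, with a median of 0.09, while 51.5% of all probe sets lay above 0. The 6 NDUFAF genes, whose proteins help to build complex I, all had values between 0.07 and 0.13. Of the 9, only NDUFAF6 had an unadjusted p under 0.05 for age. The mean deviation of the 9 probe sets was -0.01 to 0.10 in FASD at 2 years and -0.07 to -0.04 in FASD at 5 months, so that these groups did not overlap. In controls it was -0.12 to 0.13 at 2 years and -0.13 to 0.09 at 5 months, with overlap over most of the range. The list was described after these values were known, and no test was made of it.

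NDUFAF6, a factor needed early in complex I assembly, had values of 7.30, 7.38, 7.47, 7.46 and 7.27 in FASD at 2 years, against 7.10, 7.14, 7.25, 7.16 and 7.22 in FASD at 5 months. The lowest animal at 2 years was above the highest at 5 months. Controls had 7.25 to 7.56 with a median of 7.37 at 2 years, against 7.17 to 7.49 with a median of 7.31 at 5 months, and they overlapped. The age difference was 0.13 (SE 0.05, interval 0.03 to 0.23, unadjusted p = 0.0144, adjusted p = 0.369, limma), a ratio of 1.09. It was 0.20 in FASD and 0.06 in controls, and the interaction of 0.14 had a limma p of 0.167. The alcohol difference was -0.15 at 5 months (unadjusted p = 0.047, adjusted p = 0.932, limma) and -0.01 at 2 years. In 14 of 22 fits without 1 animal the p at 5 months was 0.05 or more, with differences of -0.13 without FASD animal 2 and -0.14 without control animal 6 of that age.

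NDUFAF1 encodes a chaperone of the membrane arm of complex I and had the lowest p for the interaction. Its values were 8.66, 8.83, 8.72, 8.81 and 8.75 in FASD at 2 years, against 8.46 to 8.77 with a median of 8.64 in controls at 2 years. They were 8.60, 8.50, 8.54, 8.61 and 8.46 in FASD at 5 months, against 8.49 to 8.80 with a median of 8.67 in controls at 5 months. All 5 FASD animals were above the control median at 2 years and all 5 were below it at 5 months. The difference was 0.13 at 2 years (interval -0.01 to 0.27). At 5 months it was -0.14 (interval -0.28 to -0.004, unadjusted p = 0.0447, adjusted p = 0.932, limma). The interaction was 0.27 (SE 0.09, interval 0.08 to 0.46, unadjusted p = 0.00804, limma). Its adjusted p was 1, and 3% of all probe sets had an unadjusted p under 0.05. The interaction ranged between 0.24 and 0.31 when any 1 animal was left out, always with an unadjusted p under 0.05. The difference at 5 months was above that threshold in 9 of these fits, and was -0.12 without control animal 6 at 5 months.

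NDUFAF1 was also separate between the ages in FASD, with a difference of 0.21 (unadjusted p = 0.00514, limma), and -0.06 in controls. NDUFAF1 and NDUFAF6 were the 2 probe sets of the pathway whose FASD groups did not overlap between the ages, both higher at 2 years. Over all probe sets 0.921% were higher at 2 years in FASD without overlap (1.31% in either direction). The oligodendrocyte and precursor markers also differed between these groups, at -0.31, -0.11, -0.09, 0.07 and 0.23 in FASD at 2 years and 0.15 to 0.41 in FASD at 5 months, and their part in these age differences was not tested. The other assembly factors gave SDHAF4 0.12 (interval -0.02 to 0.27) and NDUFAF2 0.12 (interval -0.02 to 0.27) as the next lowest p values for age. SDHAF2, which inserts the flavin into SDHA, had 0.02 for both alcohol and age. SDHAF3, which helps to mature SDHB, had -0.03 for alcohol and -0.01 for age.

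Within single ages and exposures the numbers under an unadjusted p of 0.05 were small as well. At 5 months 5 probe sets passed for alcohol, the 4 lower ones being those of NDUFS7, UQCRB, NDUFAF1 and NDUFAF6 and the higher one ATP5MC1, against 4.83% of all probe sets (3.36% lower and 1.47% higher). In the splits by sign that follow, the shares of all probe sets are for the values as deposited only. The split by sign at 5 months was 30 lower and 32 higher in FASD (61% and 39% of all probe sets), but 14 and 48 after centring and 16 and 46 after quantile normalization. The median over all probe sets moved too, from -0.027 to 0.008 after centring and to 0.003 after quantile normalization. At 2 years it was 38 lower and 24 higher in FASD (46.1% and 53.9%), but 41 and 21 after centring and 31 and 31 after quantile normalization. For the interaction it was 36 below and 26 above 0 (40% and 60%), but 48 and 14 after centring and 43 and 19 after quantile normalization. The median interaction over all probe sets moved from 0.032 to -0.012 and to 0.003 with these scalings. Between the ages 3 passed in FASD, ATP5MC1 lower and NDUFAF1 and NDUFAF6 higher at 2 years (6.99% of all probe sets, 2.28% lower and 4.71% higher). In controls 1 passed, COX7A1, which was lower at 2 years (5.55% of all, 3.77% lower and 1.78% higher). The split between the ages was 24 lower and 38 higher at 2 years in FASD (44.5% and 55.5%), against 32 and 30 after either scaling. In controls it was 28 and 34 (54.9% and 45.1%), against 19 and 43 after centring and 31 and 31 after quantile normalization.

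Genes that serve the same pathway without being subunits were taken from 6 lists with 78 measured probe sets. For alcohol, 8 of them were lower and 2 higher at an unadjusted p under 0.05, a share of 12.8% beside 8.44% of all probe sets (6.01% lower and 2.43% higher), and none passed the adjusted threshold with limma. Regulators of mitochondrial biogenesis had 10 of 13 probe sets below 0 (53.2% of all probe sets), with a median of -0.04, and 2 under 0.05. The count of 10 was the same after centring and after quantile normalization. TFAM, which packages and transcribes mitochondrial DNA, averaged 8.32 ± 0.16 in FASD and 8.42 ± 0.10 in controls at 2 years (SD, n = 5 and 6), and 8.16 ± 0.23 in FASD and 8.38 ± 0.09 in controls at 5 months, with an alcohol difference of -0.16 (unadjusted p = 0.0192, adjusted p = 0.579, limma). SIRT1, a deacetylase that acts on the coactivator PGC-1alpha, had an alcohol difference of -0.16 (unadjusted p = 0.00919, adjusted p = 0.579, limma). PPARGC1A, which encodes that coactivator, had -0.10 (unadjusted p = 0.0725, adjusted p = 0.62, limma) and NRF1, a transcription factor of nuclear-encoded subunits, had -0.04.

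Assembly and maturation factors outside the symbol rule had 14 of 26 below 0 for alcohol, with 2 lower and 1 higher under 0.05. TTC19, needed for the turnover of Rieske protein fragments in complex III, had -0.14 (unadjusted p = 0.00688, adjusted p = 0.579, limma), TIMMDC1, a complex I assembly factor, had -0.09, and SURF1, a complex IV assembly factor, had 0.12 in one of its probe sets. All 9 probe sets for ADP/ATP exchange, channels and uncoupling were below 0 for alcohol, with a median of -0.04, and all 9 were above 0 for age, with a median of 0.05 (53.2% and 51.5% of all probe sets). Within single ages, 5 of 9 were below 0 for alcohol at 2 years, with a median of -0.006 (46.1% of all probe sets). At 5 months 9 of 9 were, with a median of -0.08 (61%). After centring or quantile normalization 7 of 9 were below 0 for alcohol, and for age 9 of 9 and 8 of 9 were above 0 after centring and after quantile normalization. Only SLC25A27, an uncoupling protein of neurons, passed for alcohol (-0.17) and only VDAC1, the main channel of the outer membrane, for age (0.10). Coenzyme Q synthesis, electron entry outside complexes I and II, and import and inner membrane organisation had 1, 2 and 1 probe sets under 0.05 for alcohol, namely COQ3 (-0.10), GPD2 (-0.18) with ETFB (0.19), and OPA1 (-0.20). For age, 4 of the 78 probe sets were under 0.05 (5.13%, beside 9.57% of all probe sets), COQ8A with 0.14 and VDAC1 higher at 2 years, and UQCC3 with -0.15 and MTERF1 with -0.10 lower.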

How the data were processed

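The authors hybridized RNA from 24 hippocampi, in random order on 1 day, and discarded 2 FASD arrays after principal component analysis. The deposited log2 intensities of the other 22 were made by the authors with RMA (the sources used here do not state its version) and reduced by annotation, detection and 1 probe set per gene, yet some symbols repeat. RMA scales arrays to 1 distribution over the whole array, but the medians of the deposited rows, a part of it, ran from 7.93 to 8.06. Whether this reflects a shift common to all rows was not tested. The platform annotation gave 1 symbol to 8730 probe sets, several to 88 and none to 2694. The table includes 3 array control rows. All columns with values were matched to animals.

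Group means were fitted with limma 3.58.1 in R 4.3.3, with empirical Bayes moderation and Benjamini-Hochberg adjustment over 11512 rows. Figures used matplotlib 3.10.9 in Python 3.11.15. Steps were tested on simulated data. The number of arrays limits the precision.

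Members and lists were chosen with earlier results of these data known. The genes named are those with an unadjusted p under 0.05 for alcohol, age or the interaction, the 2 of lowest p for alcohol and for age in each complex and list, isoform families, genes with several probe sets and those of highest and lowest mean. Genes named besides these, such as other subunits given for completeness, were chosen after their values were seen. Alternatives were centring, quantile normalization, array weights, a replicate block, an intensity trend, the methods' two-way analysis of variance, a filter on low values, 1 probe set per gene and leaving out each animal. No sequences were printed, as no sequence table was used here.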

Additional observations from a re-analysis of the deposited data

Results flagged for a closer look

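Among the named probe sets of the pathway and the mean over its members, in 6 of the 124 sets of 5 or 6 values from 1 group, 1 animal lay far from the others of its group in a probe set of the pathway, which chance gives in about 1 group in 20. FASD animal 2 at 5 months was below the other 4 in COX7A2 (10.4, against 10.7 to 10.8) and in the dimmer UQCRB probe set (9.57, against 10.2 to 10.3). Control animal 6 at 5 months, whose labels conflict on age, was below the others in the same UQCRB probe set (9.65, against 10.1 to 10.4). FASD animal 2 at 2 years was above the others in NDUFA4 (12.62, against 12.48 to 12.51). Control animal 6 at 2 years was below the others in the brighter UQCR11 probe set (10.1, against 10.3 to 10.4), and control animal 1 at 5 months was above the others in the brighter ATP5MJ probe set (6.52, against 6.35 to 6.41).

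In 2 of the 62 probe sets (3.23%, beside 3% of all probe sets) the interaction had an unadjusted limma p under 0.05. That of ATP5MC1 was at a p of 0.05 or more in 15 of 22 fits that left out 1 animal. NDUFAF1 had an interaction of 0.27 (unadjusted p = 0.00804, limma) and ATP5MC1 one of -0.43 (unadjusted p = 0.0479, limma), and the adjusted p was 1 for both.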

How the results depend on the processing

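No probe set of the pathway passed the adjusted threshold under any alternative. The median differences moved by less than 0.0467, the pooled SD of the animals' means over the pathway. That SD describes single animals and is not the uncertainty of a group difference. With centring the median moved from -0.006 to -0.05 for the interaction and from 0.005 to 0.04 for alcohol at 5 months. Counts at an unadjusted p under 0.05 shifted more. With 1 probe set per gene the count for alcohol was 1, against 2 (1.82% of the pathway and 8.33% of all probe sets). With array weights the count was 14 for age, against 5 (22.6% of the pathway and 14.1% of all probe sets). Between the ages it was 8 in FASD, against 3 (12.9%, beside 9.37% of all probe sets). In controls it was 5, against 1 (8.06%, beside 11.8%), and for the interaction 1, against 2 (1.61%, beside 6.29%). Centring and quantile normalization each gave 0 for alcohol at 2 years (beside 5.99% and 6.19% of all probe sets). At 5 months each gave 3 (4.84%, beside 4.95% and 4.74%). Between the ages in FASD each gave 5 (8.06%, beside 7.37% and 7.15%). Centring gave 2 between the ages in controls (3.23%, beside 5.91%). The two-way analysis of variance gave 1 for the interaction (1.61%, beside 3.19%) and 2 for alcohol at 2 years (3.23%, beside 5.79%). Between the ages it gave 5 in FASD (8.06%, beside 7.04%) and 2 in controls (3.23%, beside 5.4%). The filter on low values gave 0 for alcohol at 2 years (beside 5.63% of all probe sets kept). The cause was not tested.

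Leaving out 1 animal gave counts of 1 to 3 for alcohol (1 without FASD animal 1 at 2 years), 4 to 9 for age (9 without control animal 2 at 2 years) and 1 to 2 for the interaction (1 in 15 of 22 fits). The shares over all probe sets in the fits without 1 animal are not given here, so these counts describe stability only. For alcohol at 2 years the counts were 0 to 2, with 2 when control animal 3 of that age was omitted and 0 when FASD animal 2 or 3 or control animal 5 or 6 of that age, or FASD or control animal 3, 4 or 5 at 5 months, was omitted. For alcohol at 5 months they were 3 to 6, with 3 on omitting FASD animal 2, 3 or 6 or control animal 3, 5 or 6 of that age. Between the ages they were 3 to 8 in FASD, with 8 on omitting animal 2 at 2 years and 7 and 5 on omitting animals 6 and 4 at 5 months. In controls they were 0 to 4, with 4 and 3 on omitting animals 2 and 6 at 2 years, 0 on omitting animal 1 or 5 at 2 years or animal 6 at 5 months, and 2 on omitting FASD animal 2 or control animal 3 at 2 years or control animal 3 at 5 months. Replicate numbers were not shown to pair the animals, and the check made could not exclude it. Of 30 pairs with the same number, 13 correlated above 0.1 (r of -0.33 to 0.39), and pairs of unlike number were not compared. FASD animal 2 at 2 years had the 2 highest r, with FASD animal 2 at 5 months (0.39) and control animal 2 at 2 years (0.38). The paper describes cases and controls being sacrificed in alternation, an order that the sample titles do not give. With the replicate number as a block the counts were 0 for alcohol at 2 years (beside 6.01% of all probe sets) and 2 between the ages in controls (3.23%, beside 6.47%). Elsewhere they were within 1.5 times the main counts. Macaque probes on vervet RNA limit small differences. So does low signal in the dimmest probe sets, with mean log2 intensities of 4.28 in SDHAF3 and 5.13 in the dimmer one of ATP5MJ.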
